A study of Mus musculus with 6 samples.

Results

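The genes described here make, carry and sense cholesterol: the enzymes of cholesterol synthesis, the SREBP-2 transcription factor with the proteins that hold or release it, carriers and an esterifying enzyme, and the LXR receptors with 2 exporters they control. They were taken by name, as probe sets whose platform symbol is exactly one of 31 listed symbols, which stand for 30 genes because Sc4mol and Msmo1 are the old and present names of 1 gene. Of these, 29 had probe sets of their own, 379 in all, among 20416 genes on the array. No probe set carried Acat2, the cytosolic thiolase that opens the pathway, as its symbol, so it was not analysed here.

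RNA came from myotubes of the mouse muscle line C2C12, differentiated in medium with 2% horse serum and used 4 to 7 days later. Cultures of 1 group stood in 100 nM insulin for 48 h to make them insulin resistant, and those of the other got none. Medium was renewed every 24 h. Each group held 3 arrays that the labels call biological replicates, all from 1 cell line, so p-values measure the spread between cultures of that line.

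Cholesterol is built from acetyl-CoA through mevalonate to squalene, which is closed into lanosterol and trimmed to cholesterol. When sterols are ample, Insig proteins hold the SREBP-2 precursor and its escort Scap in the endoplasmic reticulum. When sterols run short, the precursor travels to the Golgi, is cut, and its released part enters the nucleus and switches on synthesis and uptake. Oxysterols act the other way through LXR, which raises export. In muscle fibres cholesterol is a main lipid of the surface membrane and its tubules, and mevalonate also feeds prenyl groups, dolichol and ubiquinone.

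A promoter window of 300 bases, 250 before to 50 after the start site, was at hand from RefSeq (GRCm38.p6) for 23 of the 29 genes, with 30 windows in all. A set of 3 short motifs was searched on both strands, and no matches of different motifs overlapped. The sterol regulatory element core, searched as TCACNCCAC, stood in 1 of the 30 windows, that of Hmgcs1, against 1.24% of all 32851 windows in the table. The CCAAT box bound by NF-Y, a factor that works beside SREBP-2, stood in 63.3% of the 30 windows against 37.4% of all windows. The GC box GGGCGG, bound by Sp1, stood in 76.7% against 35.7%. Of the 8 genes called higher below, 7 had a window, and all 7 held a CCAAT box in at least 1 window. So did 12 of the 15 genes with a window that did not pass. Counted by window, a CCAAT box stood in 87.5% of the 8 windows of genes called higher. It stood in 57.1% of the 21 windows of genes that did not pass. A match is only a match of letters and shows no binding.

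Windows of 3 genes are shown because they carry these patterns: Hmgcs1 with the only sterol element core, Mvk with the most CCAAT boxes of a gene called higher, and Lss with the largest change. All run 5′ to 3′ on the plus strand, and capitals mark the sterol element core and CCAAT boxes of either strand. The positions are chr13:119690101-119690400 for Hmgcs1, chr5:114444019-114444318 for Mvk and chr10:76531355-76531654 for Lss.
Hmgcs1: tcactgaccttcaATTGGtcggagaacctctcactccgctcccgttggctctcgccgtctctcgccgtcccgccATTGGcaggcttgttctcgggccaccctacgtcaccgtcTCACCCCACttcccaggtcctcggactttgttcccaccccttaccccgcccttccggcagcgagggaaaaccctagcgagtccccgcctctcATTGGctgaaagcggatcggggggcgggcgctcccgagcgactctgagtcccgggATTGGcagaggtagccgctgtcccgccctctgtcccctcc
Mvk: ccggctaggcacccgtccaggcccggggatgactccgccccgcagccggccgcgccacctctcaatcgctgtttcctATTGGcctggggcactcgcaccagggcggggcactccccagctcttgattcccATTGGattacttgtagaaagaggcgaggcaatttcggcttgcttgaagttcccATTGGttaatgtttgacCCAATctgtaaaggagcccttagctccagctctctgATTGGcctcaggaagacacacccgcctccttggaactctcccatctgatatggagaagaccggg
Lss: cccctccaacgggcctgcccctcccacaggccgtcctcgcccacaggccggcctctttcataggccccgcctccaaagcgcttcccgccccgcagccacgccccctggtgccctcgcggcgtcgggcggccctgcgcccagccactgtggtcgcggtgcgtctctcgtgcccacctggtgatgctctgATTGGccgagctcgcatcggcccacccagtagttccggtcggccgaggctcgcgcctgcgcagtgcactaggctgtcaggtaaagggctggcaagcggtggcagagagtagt
In the Hmgcs1 window the sterol element core lies at -137 to -129 from the start site, amid 4 CCAAT boxes. The Mvk window holds 5 CCAAT boxes and the Lss window 1.

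Calls fell mainly on the enzymes of cholesterol synthesis. Of 17 enzymes measured, 7 rose after insulin, none fell and 10 did not pass, with a median change of 0.22 on the log2 scale. Among carriers Stard4 rose, while SREBP-2, its partners and the LXR and efflux genes did not pass. Rises were moderate, from 1.26-fold to 1.58-fold. In all, 8 of the 28 genes bright enough to test were called by limma at a Benjamini-Hochberg adjusted p of 0.05 over all 14291 tested genes, where 15.9% of genes were called. All 8 were rises, against 9.56% of tested genes called higher. None was called lower, although 3 had an unadjusted p under 0.05 in that direction, and 6.35% of tested genes were called lower. The median change of the 28 genes was 0.13, against -0.0028 over all tested genes, and dropped to 0.017 when each gene was read from its brightest probe set alone.

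A gene's value on an array is the median of the RMA log2 values of its probe sets, and a change is the insulin mean minus the control mean. Values of different genes come from different probes and are not set against each other. Arrays were alike in scale, with medians between 8.79 and 8.82, and RMA leaves every change measured against the bulk of transcripts. Genes with a mean under 7.05, the 30th percentile, were not tested. Of the genes described here that left out only Abca1.

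**Figure D1:**
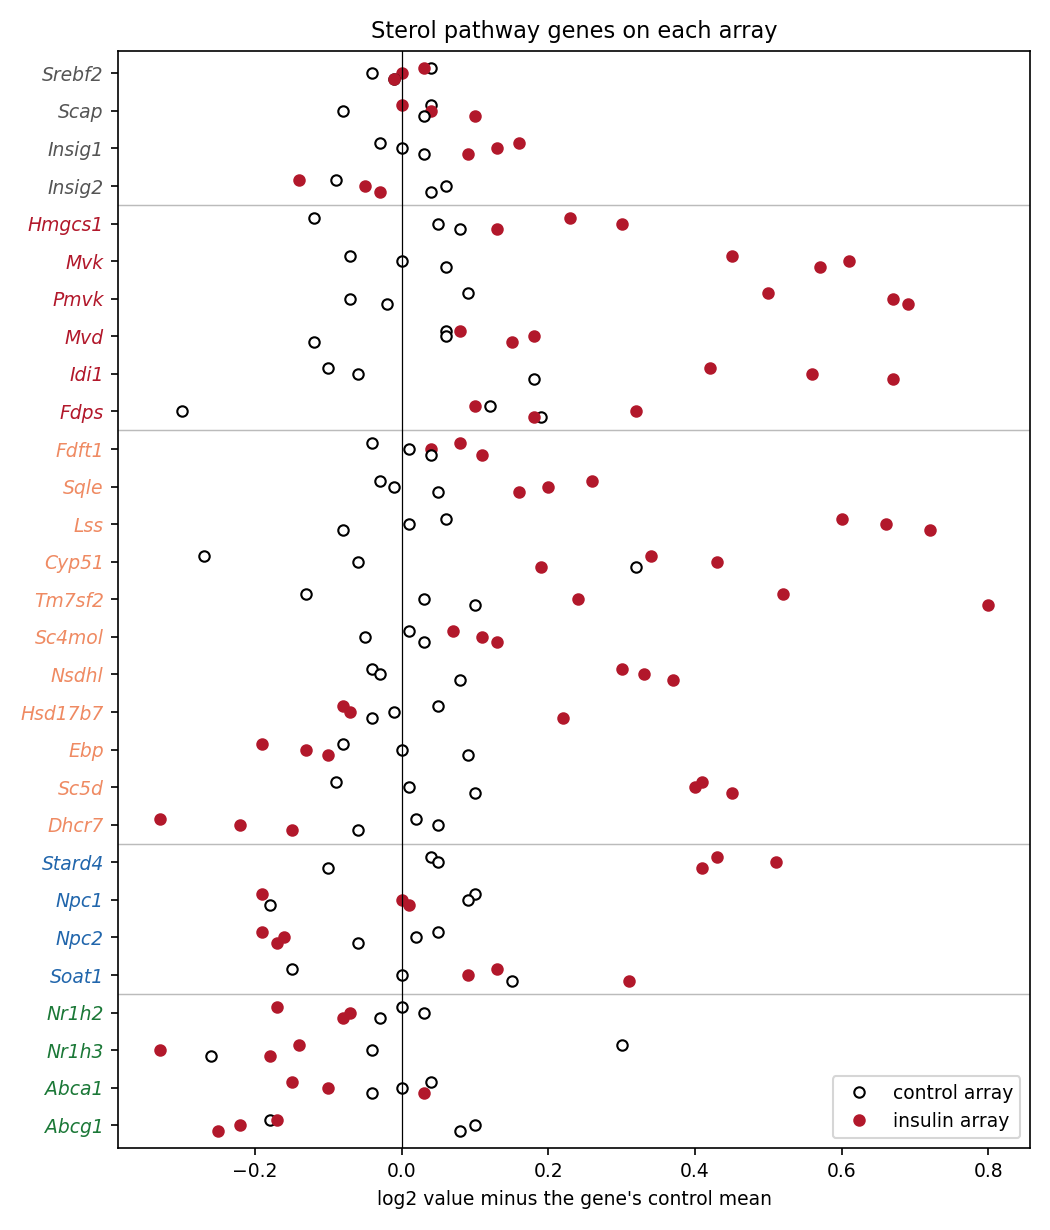
Each row is 1 gene and each point 1 array, drawn as the log2 value minus the gene's control mean; open circles are the 3 control and filled circles the 3 insulin arrays. Lss, Pmvk and Mvk show a clear gap between groups, while the points of Srebf2 and Scap mix.

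In the mevalonate pathway all 6 enzymes measured had changes above 0, and 3 of them rose. Mvk, which phosphorylates mevalonate, read 10.88, 10.95 and 11.01 on the control arrays and 11.40, 11.56 and 11.52 on the insulin arrays. Every insulin array lay above every control array, a change of 0.55 ± 0.07 (SE, limma adjusted p = 0.00281). Pmvk, the kinase that follows it, read 11.56, 11.40 and 11.45 in controls and 11.97, 12.14 and 12.16 after insulin. The groups were again apart, by 0.62 ± 0.08 (SE, limma adjusted p = 0.00257).

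Idi1, the isomerase that balances the 2 five-carbon isoprene units, had control values of 9.81, 9.85 and 10.09 and insulin values of 10.33, 10.47 and 10.58. Control 3 was the highest control and still lay under the lowest insulin array. The change was 0.54 ± 0.10 (SE, limma adjusted p = 0.010). Its 9 probe sets carry platform numbers in 2 separate runs, and whether the runs read the same locus is not given in the sources used here. The probe sets of both runs were higher after insulin.

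The other mevalonate enzymes did not pass. Hmgcs1, which makes HMG-CoA and whose window holds the sterol element core shown above, read 12.41, 12.58 and 12.61 in controls and 12.76, 12.83 and 12.66 after insulin. Its groups did not overlap, but the change of 0.22 had a limma adjusted p of 0.107 and a 95% interval from 0.035 to 0.41. It passed with the intensity trend (0.0351), array quality weights (0.034) and the mean of probe sets (0.0482). Mvd, the decarboxylase, changed by 0.14 (interval -0.034 to 0.31).

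Fdps, which makes farnesyl diphosphate, changed by 0.20 with an interval from -0.11 to 0.50, and its groups overlapped. Control 2 stood apart in the gene value, at 12.13 against 12.55 and 12.62. The gene value is the median of 7 probe sets, and without control 2 the change was 0.043. On controls 1 and 3 this median fell on 1 probe set, and on control 2 and the insulin arrays on another. The probe set of controls 1 and 3 read 11.82 on control 2 and 12.45, 11.61 and 12.24 after insulin. The other read 12.17, 12.13 and 12.10 in controls and 12.53, 12.75 and 12.61 after insulin. Of the 7 probe sets 6 had higher means after insulin, all with insulin arrays wholly above controls, and 1 passed alone. The share wholly above was not counted over all probe sets. With the mean of its probe sets the change was 0.23 and passed (limma adjusted p = 0.0139). It also passed with its brighter probe sets (0.25, 0.0226) and with array quality weights (0.46, 0.0121).

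In the sterol branch, from squalene to cholesterol, 4 of 11 enzymes rose. Lss, which folds squalene epoxide into lanosterol, had control values of 11.09, 11.04 and 10.95 and insulin values of 11.63, 11.69 and 11.75. The gap between groups was far wider than the spread within them. Its change of 0.66 ± 0.07 (SE, limma adjusted p = 0.00140) was the largest of the group, or 1.58-fold, and 1.57% of all tested genes had a larger one. Sc5d, a sterol desaturase near the end of the path, read 10.85, 10.95 and 11.04 in controls and 11.35, 11.34 and 11.39 after insulin. Its insulin arrays lay within 0.05 of each other and above all controls (change 0.42 ± 0.07, SE, limma adjusted p = 0.00733).

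Nsdhl, which helps strip methyl groups from the sterol ring, read 12.05, 12.06 and 12.17 in controls and 12.39, 12.42 and 12.46 after insulin. The groups were apart by 0.33 ± 0.07 (SE, limma adjusted p = 0.0132). The call was lost without control 2 (adjusted p = 0.0565), insulin 2 (0.0548) or insulin 3 (0.0585), and with brighter probe sets, where the change was 0.21 (0.0589). Tm7sf2, a sterol reductase, read 10.19, 10.35 and 10.42 in controls but 10.84, 10.56 and 11.12 after insulin. In this gene value its insulin arrays spread more than those of 98.2% of tested genes. The median fell on 1 probe set on insulin 2 and on another on insulin 1 and 3, which read 10.97 on insulin 2. Of its 11 probe sets 9 had insulin arrays wholly above controls, a share not counted over all probe sets. The change of 0.52 ± 0.14 (SE, limma adjusted p = 0.0358) did not pass without control 1 (adjusted p = 0.0874), control 2 (0.0879), insulin 1 (0.101) or insulin 3 (0.0969), nor without the filter on dim genes (0.063).

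Sqle, Fdft1 and Sc4mol had insulin arrays wholly above controls without passing. Sqle, which adds the oxygen to squalene, read 12.62, 12.64 and 12.70 in controls and 12.91, 12.85 and 12.81 after insulin. Its change of 0.20 came close (limma adjusted p = 0.0696) and passed with the 50th percentile filter (0.0406), the intensity trend (0.0112), array quality weights (0.00894) and the mean of probe sets (0.031). Fdft1, squalene synthase, changed by 0.075 (interval -0.067 to 0.22). Sc4mol, the methyl oxidase, changed by 0.11 (interval -0.032 to 0.25) and passed with array quality weights (limma adjusted p = 0.0374) and the mean of probe sets (0.0417).

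Cyp51, the lanosterol demethylase, spread widely among controls, at 11.52, 11.73 and 12.11, against 12.13, 12.22 and 11.98 after insulin. The control spread was wider than in 96.1% of tested genes, and the groups overlapped through control 3. The change of 0.33 did not pass (limma adjusted p = 0.176), but was 0.49 without control 3 (0.019) and 0.37 with array quality weights (0.0127). The gene value, a median, fell on a different probe set on each control array. Of the 13 probe sets 12 had higher means after insulin, 8 of them with insulin arrays wholly above controls, and none passed alone. The share wholly above was not counted over all probe sets. The brightest probe set of Cyp51 gave -0.0024, the lowest of the 13. Hsd17b7, a ketone reductase of the same stretch, changed by 0.022 with overlapping groups.

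The enzymes Dhcr7 and Ebp had insulin arrays below controls. Dhcr7, the last reductase before cholesterol, read 12.03, 12.06 and 11.95 in controls and 11.68, 11.79 and 11.86 after insulin. All its insulin arrays lay below all controls, and the change of -0.23 ± 0.07 (SE) narrowly missed the threshold (limma adjusted p = 0.0663). It passed with arrays centred on their medians (0.0494), the 50th percentile filter (0.0403), the intensity trend (0.0255) and array quality weights (0.00629). Ebp, the isomerase that shifts a ring double bond, read 12.73, 12.81 and 12.90 in controls and 12.62, 12.68 and 12.71 after insulin. Its groups did not overlap either, with a change of -0.14 (limma adjusted p = 0.227), and -0.215 with its brighter probe sets, which passed (0.0351). Among the 17 enzymes, then, 12 had insulin arrays wholly above, 2 wholly below and 3 overlapping, where 20% of all tested genes lay wholly above and 15.7% wholly below.

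**Figure D2:**
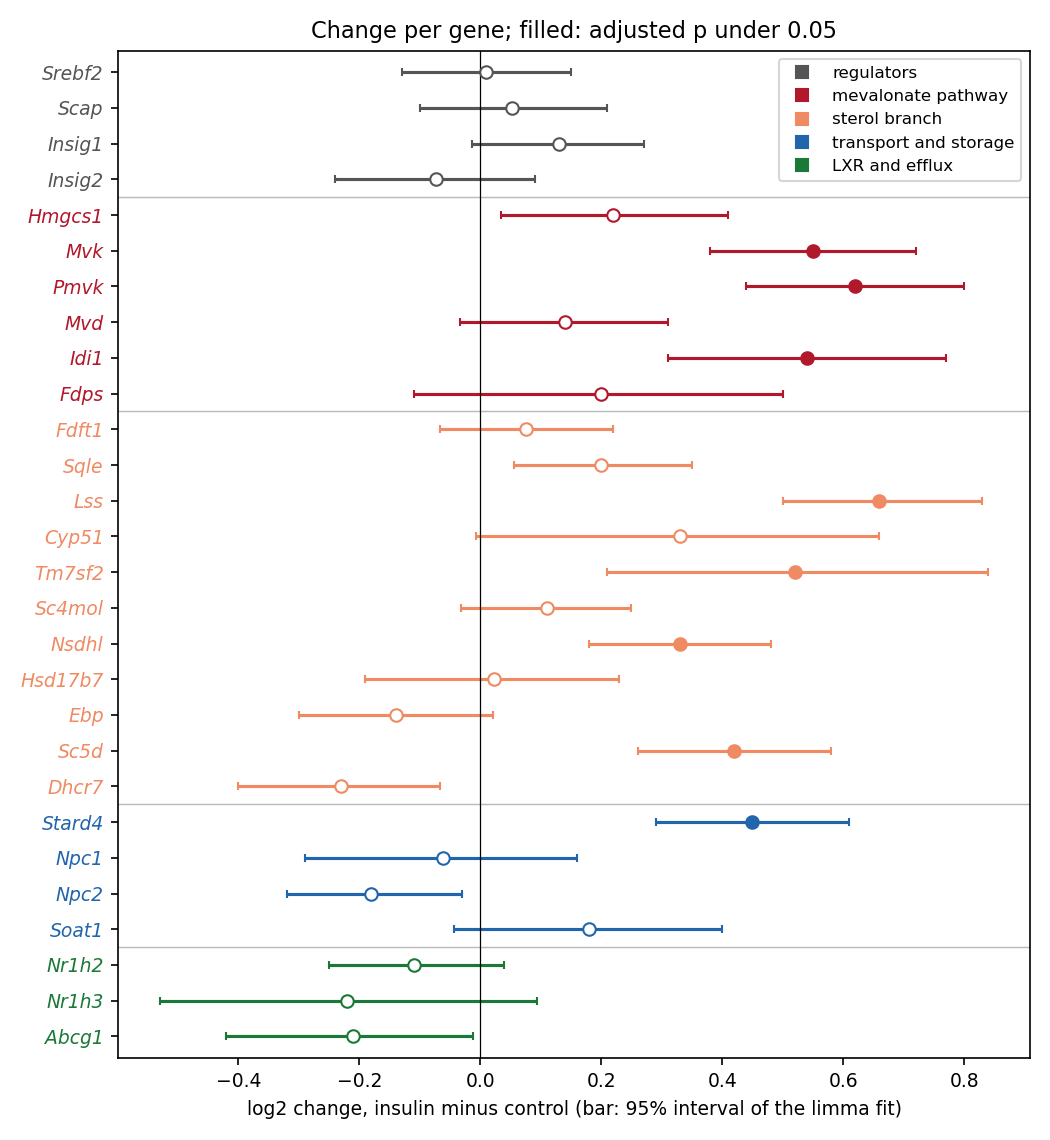
Points give the log2 change, insulin minus control, of the 28 tested genes, with bars for the 95% interval of the limma fit; filled points had an adjusted p under 0.05 and colours mark the roles. The 8 filled points lie between 0.33 and 0.66; Dhcr7 sits at -0.23.

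Regulators of the pathway did not pass. Srebf2, the gene of SREBP-2, read 12.23, 12.15 and 12.18 in controls and 12.22, 12.19 and 12.18 after insulin. The groups mixed, with a change of 0.0094, a 95% interval from -0.13 to 0.15 and a limma adjusted p of 0.940. The sign turned with the setting: it was -0.093 with the brighter probe sets, and 20 of the 25 probe sets had lower means after insulin. Scap, the escort, read 10.68, 10.56 and 10.67 in controls and 10.64, 10.68 and 10.74 after insulin. These groups overlapped too, with a change of 0.053 (interval -0.10 to 0.21, limma adjusted p = 0.658), and -0.14 with the brightest probe set.

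Insig1, a retention protein whose gene is itself a target of SREBP-2, read 12.51, 12.54 and 12.57 in controls and 12.70, 12.67 and 12.63 after insulin. Insulin arrays lay above controls by a small step of 0.13 (interval -0.014 to 0.27), which did not pass (limma adjusted p = 0.208). Insig2, the retention protein that SREBP-2 does not induce in this way, read 12.16, 12.31 and 12.29 in controls and 12.11, 12.20 and 12.22 after insulin. Its groups overlapped (change -0.073, interval -0.24 to 0.091, limma adjusted p = 0.549), though the means of all 7 probe sets were lower after insulin, and the mean of probe sets passed at -0.18 (0.0469).

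Among carriers and storage genes Stard4 rose. It encodes a soluble protein that ferries sterols between membranes and is a known SREBP-2 target. Control values were 9.92, 9.93 and 9.78 and insulin values 10.31, 10.39 and 10.29. The groups were well apart, by 0.45 ± 0.07 (SE, limma adjusted p = 0.00551).

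The genes that empty lysosomes of cholesterol did not rise with it. Npc2, the soluble lysosomal carrier, read 11.75, 11.72 and 11.64 in controls and 11.51, 11.54 and 11.53 after insulin. All insulin arrays lay below controls without passing (change -0.18, limma adjusted p = 0.10). It passed with array quality weights (-0.19, 0.0134), and the change was 0.012 with its brighter probe sets. Npc1, the membrane protein that takes over from it, read 11.32, 11.31 and 11.04 in controls and 11.03, 11.22 and 11.23 after insulin, with overlap and a change of -0.062 (limma adjusted p = 0.724). Soat1, which esterifies cholesterol for storage, read 11.30, 11.45 and 11.60 in controls and 11.58, 11.54 and 11.76 after insulin, also with overlap (change 0.18, limma adjusted p = 0.264).

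LXR and export genes had changes below 0 and did not pass. Nr1h2, which encodes LXR beta, read 10.86, 10.89 and 10.83 in controls and 10.69, 10.79 and 10.78 after insulin. Insulin arrays lay just below controls (change -0.11, interval -0.25 to 0.039, limma adjusted p = 0.310). Nr1h3, which encodes LXR alpha, spread from 7.63 to 8.19 in controls, at 8.19, 7.85 and 7.63, and read 7.75, 7.56 and 7.71 after insulin. The groups overlapped (change -0.22, limma adjusted p = 0.332).

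Abcg1, a sterol exporter, read 7.52, 7.80 and 7.78 in controls and 7.53, 7.48 and 7.45 after insulin. Control 1 lay among the insulin arrays, and the change of -0.21 did not pass (limma adjusted p = 0.147). Without control 1 it was -0.31 and passed (0.0229), with array quality weights -0.30 (0.00499), and with the brighter probe sets 0.038. Abca1, the exporter that loads HDL, read 7.05, 7.01 and 6.97 in controls and 6.86, 6.91 and 7.04 after insulin and was too dim to test. Its 49 probe sets ran from -1.50 to 0.93 in the difference of group means, and 24 were higher and 25 lower after insulin.

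Probe sets of 1 gene read different stretches of its transcripts and served as a second view of the same RNA. Of the 379 probe sets, 242 had higher and 137 lower means after insulin. That count includes probe sets too dim to test and weighs genes by their number of probe sets, 49 for Abca1. The matching share over all probe sets was not counted, while 49.4% of all tested genes had a change above 0. Of the 333 bright enough to test, 43 rose and none fell by limma adjusted over all 169103 tested probe sets, where 4.87% were called in either direction, 3.43% higher and 1.44% lower. At an unadjusted p under 0.05, 97 were higher and 12 lower, together 109 of 333, where 21.8% of all tested probe sets had such a p. In Lss all 22 probe sets were higher and 16 passed, with differences from 0.036 to 0.98. In Pmvk 5 of 6 passed, and the sixth was too dim to test. In Mvk 7 of 12 passed, in Tm7sf2 4 of 11, in Sc5d 3 of 6 and in Stard4 3 of 10. In Idi1 2 of 9 passed, and in Nsdhl 2 of 10, where 2 others had lower means after insulin. In Fdps, which did not pass as a gene, 1 of 7 passed.

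Some genes that did not pass had probe sets with means on 1 side throughout. All 13 probe sets of Hmgcs1, all 13 of Sqle, all 10 of Mvd and all 5 of Sc4mol had higher means after insulin, from 0.019 to 0.39 for Hmgcs1 and from 0.066 to 0.33 for Sqle, and none passed alone. In Dhcr7 9 of 11 had lower means, and none passed alone. The count of 43 called probe sets changed with the array left out. It was 0 without control 2, insulin 2 or insulin 3, and 1 without insulin 1, with 77, 83, 82 and 79 probe sets at an unadjusted p under 0.05 in these limma fits. It was 23 without control 1 and 26 without control 3. Over all probe sets the count fell as well, from 8235 to between 429 and 1309 in the fits with 0 or 1.

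**Figure D3:**
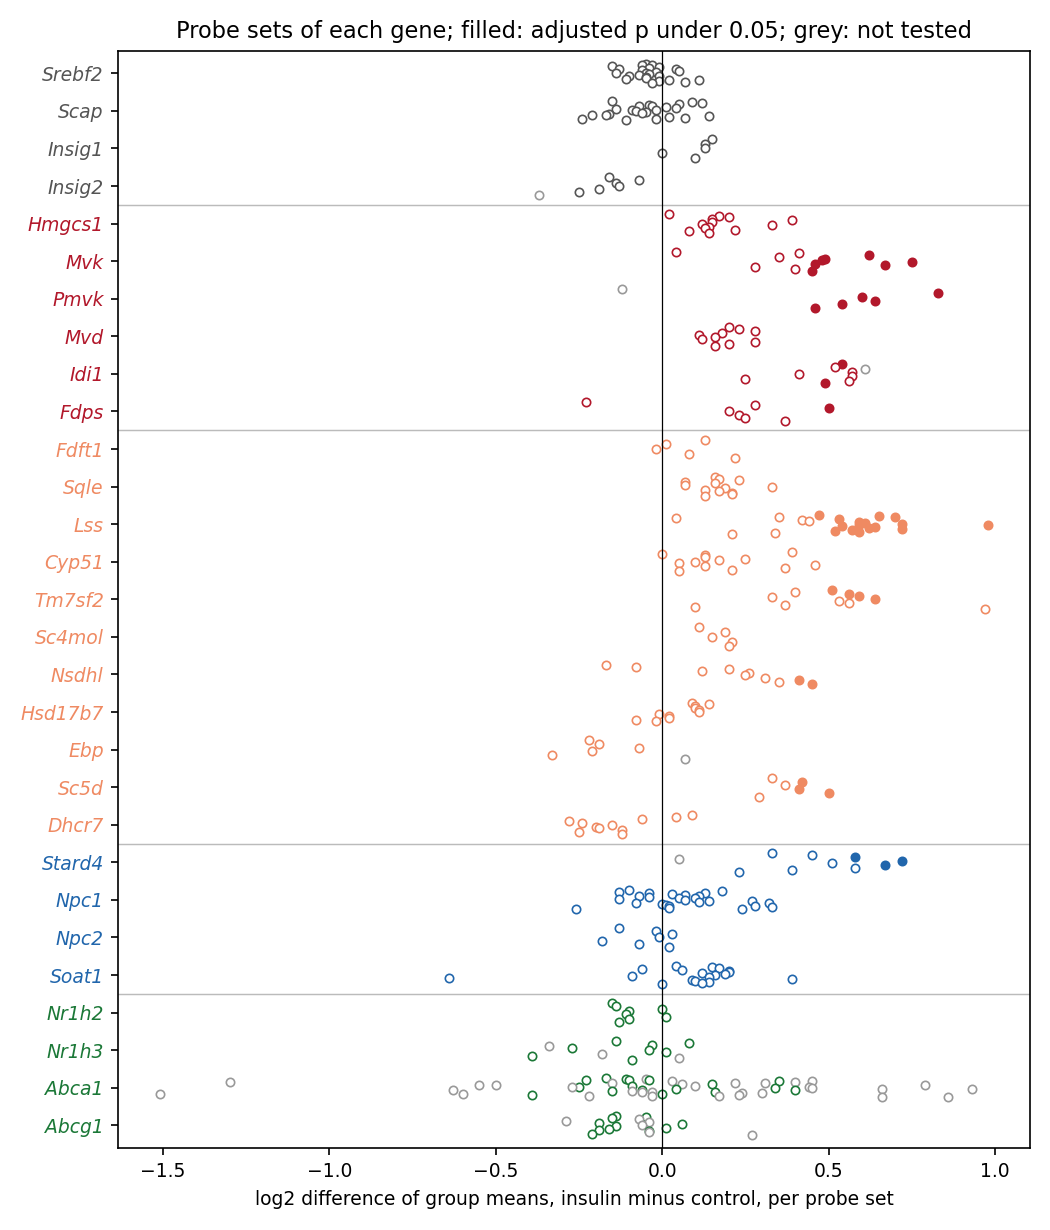
Each point is 1 probe set, placed by the difference of its group means, insulin minus control, on the log2 scale; filled points had an adjusted p under 0.05 and grey points were too dim to test. Lss runs from 0.036 to 0.98 with 16 filled points, the points of Srebf2 gather near 0, and those of Abca1 scatter widely and are mostly grey.

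In several enzymes the brightest probe set gave a smaller change than the gene value. It gave 0.34 for Lss, 0.28 for Mvk, 0.25 for Idi1, 0.075 for Sqle and 0.019 for Hmgcs1, and Mvk did not pass with it (limma adjusted p = 0.0781). Over the whole array, calls were rarer at both ends of the signal range: 10% of tested genes with a mean under 9 were called, 19.8% from 9 to 10, 22% from 10 to 11, 21.8% from 11 to 12, 13.4% from 12 to 13 and 5.69% from 13 up. Of the genes described here, 3 of 5 were called in the band from 10 to 11 and 4 of 11 in that from 11 to 12. In the band from 12 to 13 it was 1 of 9, and none of the 2 under 9 or the 1 from 13 up was called. The part of signal level in these values was not tested.

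Within groups the enzymes also varied between cultures. Control 3 held the highest of the 3 control values in 12 of 17 enzymes, against 35% of tested genes, and control 1 the lowest in 10, against 41.5%. Among insulin arrays insulin 3 was highest in 11, against 35.9%, and insulin 1 lowest in 11, against 40%. The mean of the 17 enzymes was 11.72, 11.73 and 11.81 on the control arrays and 11.98, 12.03 and 12.07 on the insulin arrays. The distance between groups, 0.27, was larger than this spread within them (SD 0.051 and 0.045, n = 3 each).

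Neighbouring genes of the pathway were counted in lists drawn from general knowledge. In the branch that leads from farnesyl diphosphate to prenyl groups, dolichol and ubiquinone, 1 of 12 tested genes rose and none fell (median 0.068), close to the 9.56% of all tested genes called higher. The gene was Pdss1, which builds the ubiquinone tail, at 8.51, 9.24 and 9.22 in controls and 9.85, 9.83 and 9.71 after insulin. Control 1 was far below the rest, and the change of 0.81 had a limma adjusted p of 0.0217, with the call lost without insulin 1 (0.0762), insulin 2 (0.0742) or insulin 3 (0.0667). Fntb, a farnesyltransferase subunit (0.23, limma adjusted p = 0.0626), and Nus1, of dolichol synthesis (0.15, 0.169), came next and did not pass. Fntb passed with the 50th percentile filter (0.0378), array quality weights (0.0105), the mean of probe sets (0.0321) and without control 3 (0.0434). Nus1 passed with array quality weights (0.0179), the mean of probe sets (0.0314) and brighter probe sets (0.039).

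Genes listed for SREBP processing, its transport to the Golgi included, or for sterol-regulated degradation went both ways. Among 14 tested 4 rose and 2 fell (median -0.0023), where 9.56% of all tested genes were called higher and 6.35% lower. Erlin1, a membrane scaffold of the endoplasmic reticulum that binds cholesterol, rose by 0.49 (limma adjusted p = 0.00582) and Rnf145, a sterol-responsive ubiquitin ligase, by 0.33 (0.0266). The call of Rnf145 was lost without control 2 (0.0934), insulin 1 (0.0949) or insulin 2 (0.102), with a block for the replicate number (0.0517), and with its brightest (0.164) or brighter (0.472) probe sets. Fbxw7, part of the ligase that removes nuclear SREBP, fell by 0.35 (limma adjusted p = 0.0133), a call lost without control 2 (0.0535), insulin 1 (0.0558) or insulin 3 (0.0514). Chosen after their values were seen, the other called genes were Pgrmc1 and Faf2, both with a rise of 0.30 (limma adjusted p = 0.0312 and 0.0383), and Ube2g2, which fell by 0.22 (0.0453). Pgrmc1 was not called without control 1 or 2 or any insulin array (0.0547 to 0.110), Faf2 without the same arrays (0.0668 to 0.131), and Ube2g2 without any single array (0.0672 to 0.147). All 3 also lost their calls with no filter (0.058, 0.069 and 0.0827). Faf2 and Ube2g2 lost theirs with the replicate block (0.0581 and 0.0768), the brightest probe set (0.14 and 0.127) and brighter probe sets (0.136 and 0.055), and Ube2g2 with repeated quantile normalization (0.0624). The proteases that cut SREBP, Mbtps1 and Mbtps2, did not pass, at -0.0036 and -0.027, and each turned sign in some alternatives.

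Among 23 other tested genes of sterol uptake, carriage and storage 3 rose and 1 fell (median -0.018), close to the shares over all tested genes (9.56% higher and 6.35% lower). Stard5, a sterol carrier related to Stard4, read 10.13, 9.96 and 10.11 in controls and 10.81, 11.01 and 11.12 after insulin. That clear separation of 0.91 ± 0.09 (SE, limma adjusted p = 0.00123) exceeded the change of Lss; the difference was not tested. Vldlr, a lipoprotein receptor, rose by 0.79 (limma adjusted p = 0.0041) from a control mean of 6.82, under the filter level, and its brightest probe set gave -0.24. Scarb1, the HDL receptor, rose by 0.28 (0.0328), a call lost without control 1, 2 or 3 (0.0604, 0.0928 and 0.0524), without insulin 2 or 3 (0.123 and 0.111), with no filter (0.0612) and with the replicate block (0.0513). The fall, also named after its value was seen, was in Osbpl5, an oxysterol-binding protein relative, by 0.27 (limma adjusted p = 0.0406). That call was lost without any single array (0.0626 to 0.134), with the replicate block (0.0815) and with no filter (0.0738).

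LXR partners, LXR targets and oxysterol enzymes counted 1 rise and no fall among 13 tested (median -0.13), again close to the 9.56% of all tested genes called higher. The rise was in Ch25h, which makes an oxysterol that holds SREBP back and activates LXR. Its values were 8.61, 8.73 and 8.71 in controls and 9.40, 9.47 and 9.47 after insulin, a change of 0.77 ± 0.07 (SE, limma adjusted p = 5.47e-04) read by 2 probe sets. Abca7 and Rxra followed by unadjusted p, at -0.24 and -0.20, and did not pass (limma adjusted p = 0.0879 and 0.127). Both passed with array quality weights (0.017 and 0.00975), and Abca7 also with the mean of probe sets (0.0155) and brighter probe sets (0.0354).

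Genes of SREBP-1 and fatty acid synthesis, the most closely related list, counted 8 rises and no falls among 15 tested, where 9.56% of all tested genes were called higher. The median was 0.40, against 0.22 for the 17 cholesterol enzymes. The difference between the lists was not tested. Its members with the smallest p were Slc25a1 (0.55), Acss2 (0.51) and Fads1 (0.54), which supply or use the same acetyl-CoA and acyl chains. Srebf1, the gene of SREBP-1, rose by 0.40 (limma adjusted p = 0.00585), but its brightest probe set gave -0.027. Srebf2 changed by 0.0094, as given above.

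**Figure D4:**
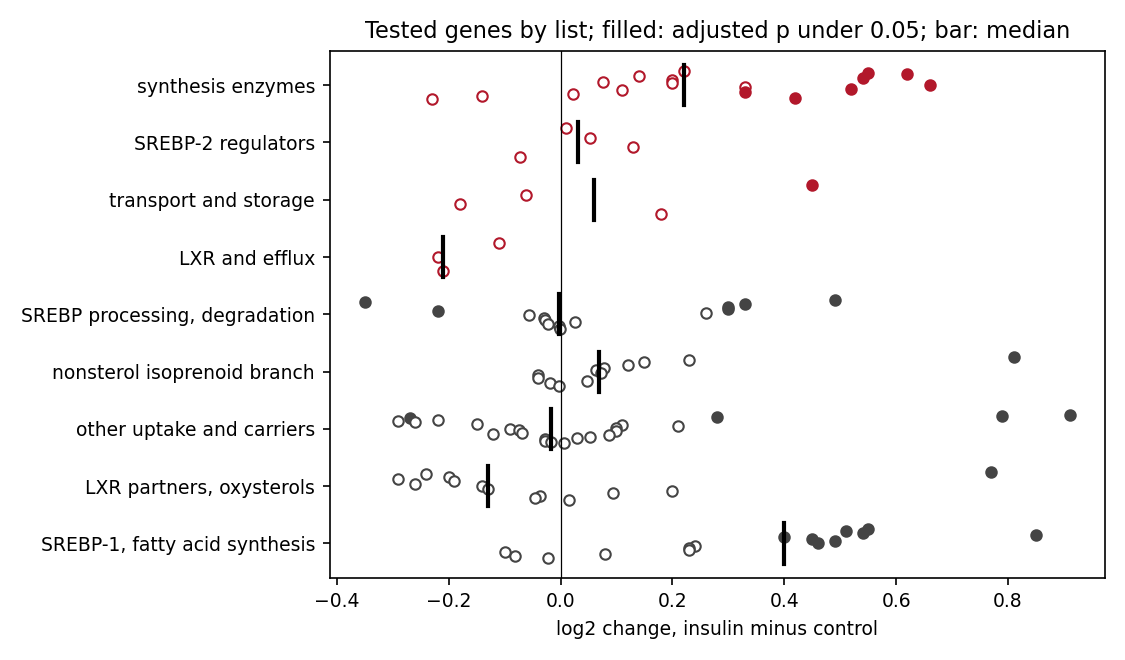
Each point is a tested gene placed by its log2 change, insulin minus control; filled points had an adjusted p under 0.05 and black bars mark list medians, with the genes described here in red and the related lists in grey. The enzymes have a median of 0.22 with 7 filled points, and the SREBP-1 list one of 0.40 with 8.

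The cell type label was checked on marker genes. All 8 myotube markers were bright, with a mean between 13.54 and 13.61 on control arrays and between 13.36 and 13.38 on insulin arrays. Their changes ran from -0.30 to -0.087 (median -0.21). In 7 of the 8 the insulin arrays lay wholly below controls, against 15.7% of tested genes. By the adjusted p only Myog and Ckm were called, with falls of 0.27 and 0.30 (limma adjusted p = 0.0264 and 0.0243). Both calls were lost without control 2, insulin 1, insulin 2 or insulin 3 (0.0549 to 0.0998) and with the brightest probe set (0.0501 and 0.0791), and that of Myog with the replicate block (0.0543) and no filter (0.0514). All 6 measured markers of cycling cells rose, where 9.56% of all tested genes were called higher. Their mean went from between 10.95 and 10.99 to between 11.56 and 11.59. Of the markers of undifferentiated myoblasts Cd34 and Myf5 rose and Pax7 did not pass, Myf5 losing its call without insulin 1, 2 or 3 (limma adjusted p = 0.0675 to 0.0854) or with its brightest probe set (0.162), with a mean from 9.02 to 9.15 in controls and from 9.32 to 9.45 after insulin. The 3 macrophage markers were too dim to test, as were 2 of 3 endothelial and 2 of 4 adipocyte markers, and none of the other 3 passed. RNA of cycling and myoblast markers was higher on the same arrays as the sterol enzymes, and its part in their rise was not tested. In RNA from whole cultures a different share of a cell type and a different amount of RNA per cell cannot be told apart.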

How the data were processed

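The authors deposited log2 values for each probe set, computed by RMA per the submitters' processing notes; the version is not given in the sources used here. That the logs are to base 2 was judged from their span, 3.15 to 14.6. Per the labels' protocols, amplification started from 25 ng of RNA. No detection calls or scan batches were used, and whether batches followed the groups was not examined. A batch that did so could not be told apart from insulin. The array number limits the precision. Of 241576 probe sets, 212097 had 1 symbol in GEO's platform annotation, 4475 several and 25004 none. Gene values are medians over probe sets with 1 symbol. Genes, and separately probe sets, under the 30th percentile of mean level (7.05 and 7.36) were left out. Insulin and control were compared with limma 3.58.1 (lmFit, eBayes, R 4.3.3, two-sided, no covariates), adjusted by Benjamini-Hochberg over all genes or probe sets tested. The fit was tested on simulated data.

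Members and lists were chosen with earlier results of these data known, so lists are described by counts and medians without a test. Values on each array are given for members past the threshold and for the regulators, carriers and LXR genes. Those of Hmgcs1, Fdps, Sqle, Cyp51, Dhcr7 and Ebp were added after seeing the data. Other lists are represented by the 3 smallest unadjusted p, and a few genes beyond these were chosen after their values were seen. Arrays were fitted as unpaired. Deviations of same-numbered arrays from their group means correlated at 0.025, 0.195 and 0 for replicates 1, 2 and 3. Between arrays of different number these correlations ran from -0.103 to 0.069, so that of replicate 2 was the highest. Whether same-numbered arrays shared a batch or another factor was not tested. Alternatives were a replicate block, repeated quantile normalization, median centring, other filters, an intensity trend, array weights, other summaries of probe sets and leaving out each array.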

Additional observations from a re-analysis of the deposited data

How the results depend on the processing

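Of the 8 genes that rose, 5 (Lss, Pmvk, Idi1, Sc5d and Stard4) kept their call in all 16 alternatives, and none of the 8 changed sign. Mvk lost its call with its brightest probe set, and Nsdhl and Tm7sf2 lost theirs in 4 and 5 alternatives. The cause of the shifts below was not tested. The count of 8 called genes ranged from 6 to 9 when an array was left out, and was 16 (13 higher and 3 lower) with array quality weights and 13 with the mean of probe sets. The median change of 0.13 was 0.017 with the brightest probe set. The 43 called probe sets became 0 with the replicate block (90 at an unadjusted p under 0.05 by limma), 14 with no filter, 70 with the intensity trend, 92 with array quality weights and between 0 and 26 with an array left out. The replicate block left the 8 called genes at 8, with all genes called at 1970. Over all genes, 2274 calls became 5007 with array quality weights, 3436 with the mean of probe sets and between 1045 and 2449 with an array left out. Signs turned in genes that had not passed, and in Vldlr and Srebf1. With the brightest probe set Cyp51 was at -0.002, Fdft1 at -0.020, Scap at -0.138, Srebf2 at -0.052, Srebf1 at -0.027 and Vldlr at -0.242. With the mean of probe sets Npc1 was at 0.061, Scap at -0.045 and Srebf2 at -0.036. With brighter probe sets Abcg1 was at 0.038, Npc1 at 0.069, Npc2 at 0.012, Mbtps1 at 0.033, Scap at -0.030 and Srebf2 at -0.093. With array quality weights Mbtps1 was at 0.081. With arrays centred on their medians Srebf2 was at -0.011. With an array left out Hsd17b7 ran from -0.076 to 0.073, Npc1 from -0.153 to 0.003, Srebf2 from -0.012 to 0.033, Mbtps1 from -0.066 to 0.048 and Mbtps2 from -0.084 to 0.009. Signal over background was not judged, which limits Abca1, Abcg1, Nr1h3 and Vldlr.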

Other observations

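One probe set carried the symbols of Fdft1 and of Ctsb, the gene of the lysosomal protease cathepsin B, and was left out of the gene values above for having 2 symbols. It read 10.76, 10.78 and 10.85 on the control arrays and 10.36, 10.45 and 10.32 on the insulin arrays. It fell by 0.43 (limma adjusted p = 0.035 over all tested probe sets), while Fdft1, read from its own 5 probe sets, changed by 0.075 and did not pass.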
